A study of Mus musculus with 4 samples.

Results

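Haem is made, moved and broken down by a small set of enzymes and carriers, and 10 of their genes are described here: the haem oxygenases Hmox1 and Hmox2, the biliverdin reductases Blvra and Blvrb, the transporters Slc48a1 and Abcb6, and the synthesis enzymes Alas1, Alad, Urod and Fech. Members were found by the RefSeq transcript that the array gives as a probe's systematic name, which gave 13 probes, and all 10 genes were among the 15537 genes tested. Of these 15537, 10953 carried a gene symbol and 4584 only the array's own name, so some genes may be counted more than once. The arrays measured messenger RNA in Hepa1c1c7, a mouse hepatoma cell line. Cells received 100 µM diethyl maleate (DEM), a thiol-reactive compound that the series title describes as an activator of the transcription factor NRF2, or the solvent dimethyl sulfoxide (DMSO), and each exposure lasted 6 hours. There were 2 arrays of DEM and 2 of DMSO, all from the same line and with no genetic change named in the labels. The labels do not say whether the RNA samples of a group came from separate cultures, so p-values reflect no more than the spread among these samples, possibly a technical one, and their small number limits the precision. The extraction label names liver tissue where every other label names the cell line.

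Haem oxygenases open the haem ring and release biliverdin, carbon monoxide and iron, and biliverdin reductases turn biliverdin into bilirubin. Synthesis begins in the mitochondrion with ALAS1, passes through cytosolic steps that include ALAD and UROD, and ends in the mitochondrion where FECH inserts iron into protoporphyrin. In hepatocytes much of the haem made serves cytochrome P450 enzymes, and haem itself restrains ALAS1. Hmox1 is a textbook target of NRF2 and of the repressor BACH1, which releases its targets when it binds haem.

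The start regions of 7 of the 10 genes were in the RefSeq promoter table (GRCm38.p6), each running from 250 bases before to 50 bases after an annotated start. They were searched on both strands for the core of the antioxidant response element that NRF2 binds (TGACNNNGC) and for the CATGCGC core of the site of nuclear respiratory factor 1, a factor known to drive the Alas1 gene in rat. The antioxidant core was found in 12.4% of all 32851 start regions in the table and the respiratory factor core in 3.91%. Among the 7 genes the first was in Blvra alone and the second in Alas1 alone. Hmox1, Slc48a1 and Fech were not searched here. Both regions are shown 5′ to 3′ on the strand of the gene because they hold the only matches among these 7 genes, with the matched letters in capitals. Alas1 has 2 listed starts, of which the more upstream is shown, on the minus strand at chr9:106247905-106248204. Blvra is on the plus strand at chr2:127070407-127070706.
Alas1: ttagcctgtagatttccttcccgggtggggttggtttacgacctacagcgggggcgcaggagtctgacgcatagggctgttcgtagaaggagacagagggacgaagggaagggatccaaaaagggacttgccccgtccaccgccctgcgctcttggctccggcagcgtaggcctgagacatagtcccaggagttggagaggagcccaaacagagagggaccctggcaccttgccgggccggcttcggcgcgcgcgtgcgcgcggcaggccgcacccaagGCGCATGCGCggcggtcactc
Blvra: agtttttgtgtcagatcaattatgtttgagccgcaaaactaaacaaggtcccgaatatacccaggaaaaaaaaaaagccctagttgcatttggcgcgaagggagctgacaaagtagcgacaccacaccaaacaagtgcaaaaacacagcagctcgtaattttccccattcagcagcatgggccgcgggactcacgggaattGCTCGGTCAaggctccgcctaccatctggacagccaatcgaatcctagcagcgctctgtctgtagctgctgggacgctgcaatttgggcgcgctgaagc
The Alas1 region holds 2 overlapping matches on opposite strands, with first letters at positions 30 and 33 counted from the annotated start as 1. The match in Blvra, GCTCGGTCA, is on the opposite strand with its first letter at position -49. A match in letters does not show that a factor binds there, and the antioxidant response elements known to act on mouse Hmox1 lie in enhancers far upstream of its start.

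The called rises were in the inducible haem oxygenase gene, a haem transporter gene and the gene of the entry step of haem synthesis. Of the 10 genes, 3 rose, Hmox1, Slc48a1 and Alas1, 0 fell and 7 were not called, at a limma adjusted p under 0.05 over all genes tested. Changes are log2 values of DEM minus DMSO after each array was scaled to its 75th percentile, and p-values come from a linear model fitted over all genes and were adjusted by the Benjamini-Hochberg method. Calls in this direction made up 0.714% of all genes tested, and calls in either direction 1.22%. The median log2 change was 0.46 over the members and -0.01 over all genes tested. The members were chosen with earlier results of these data known, so comparisons of them with all genes only describe the set. The arrays of the 2 groups did not overlap for 8 members, 7 higher and 1 lower in DEM, against 50.6% of all genes tested (24.9% higher and 25.6% lower). Every probe of a member was well above background on all 4 arrays.

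**Figure D1:**
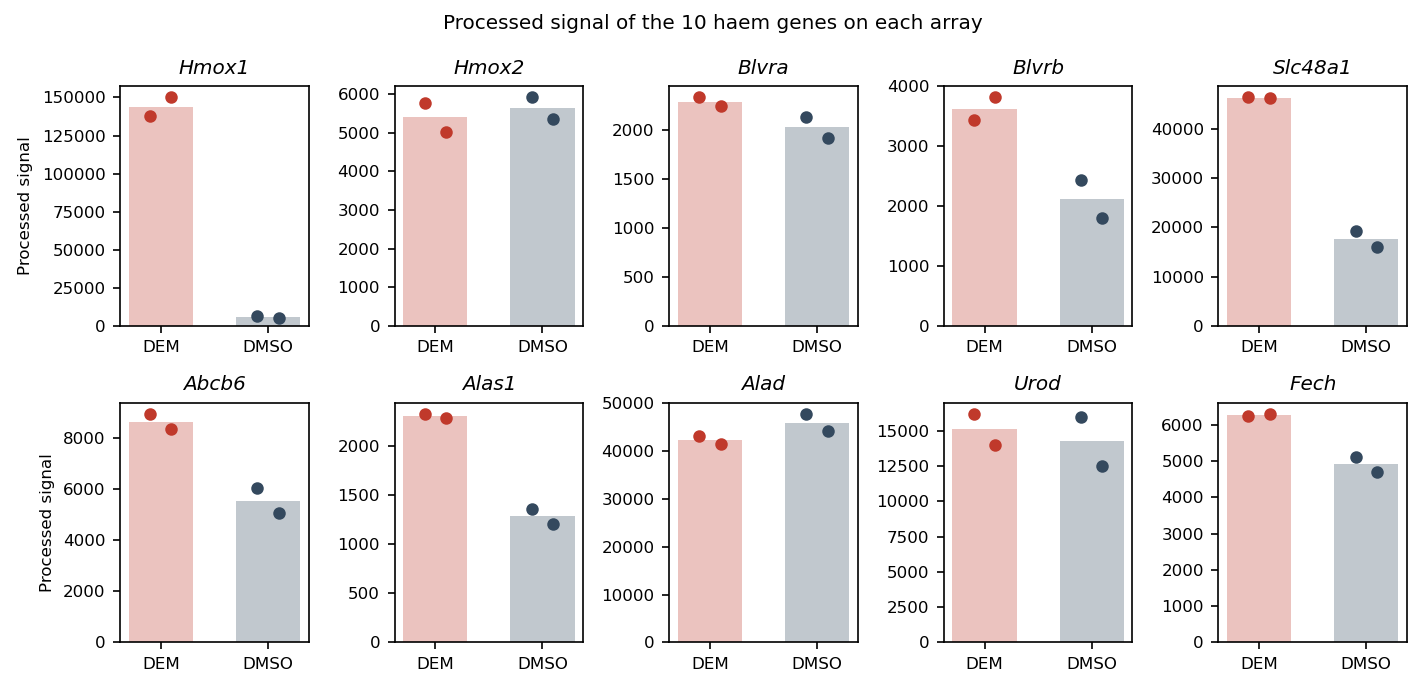
Processed signal (linear scale, each panel starting at 0) of the probe used for each gene, with DEM left of DMSO; points are arrays and bars are the mean of 2 arrays. The DEM points stand far above the DMSO points for Hmox1 and Slc48a1, and the groups overlap for Hmox2 and Urod.

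Hmox1 is the inducible haem oxygenase. Its processed signal, an intensity on a linear scale, was 138000 and 150000 in DEM, against 6580 and 5430 in DMSO. Both DEM arrays were far above both DMSO arrays, and the arrays of a group differed by 0.17 in DEM and 0.22 in DMSO on the log2 scale after scaling. The log2 change was 4.55 ± 0.13 (SE, n = 2 arrays per group), 23.4-fold with a 95% interval of 18.5 to 29.6 (limma adjusted p = 0.00442). It was the rise ranked 4 among the 15537 genes. Without DMSO replicate 1 the log2 change was 4.66 and without DMSO replicate 2 it was 4.44, but the adjusted p was then 0.0701 and 0.127, and limma called 0 genes in either case.

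Hmox2, the constitutive haem oxygenase, had a processed signal of 5770 and 5020 in DEM and 5910 and 5350 in DMSO. These values overlapped. The log2 change was -0.10 ± 0.10 (limma adjusted p = 0.643). Under median scaling, where the median of all genes was itself 0.14, it was 0.04 instead. The 95% interval ran from -0.38 to 0.17, so a rise or fall of the size seen for Hmox1 lies outside it. Within arrays, the Hmox1 change exceeded the Hmox2 change by 4.65 on the log2 scale (SD 0.17 between arrays of a group). The exact two-sided permutation test over arrays gave p = 0.333 for this difference, the smallest that 2 against 2 arrays allow.

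Biliverdin, the product of the haem oxygenases, is reduced by the products of Blvra and Blvrb, of which BLVRB also reduces flavins. Blvrb read 3440 and 3810 in DEM, against 2430 and 1800 in DMSO. Both DEM arrays were higher, yet the DMSO arrays differed by 0.38 on the log2 scale, the widest gap within a group among the 10 genes. Its log2 change was 0.75 ± 0.17 and was not called (limma adjusted p = 0.128, unadjusted p = 0.00888). It was called after normexp background correction, under median scaling and in both intensity-trend fits, with adjusted p between 0.0269 and 0.0488. Those settings called 3.65% to 5.68% of all genes tested, against 1.22% as reported.

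Blvra read 2330 and 2240 in DEM and 2130 and 1920 in DMSO. The groups did not overlap, but the log2 change was only 0.13 ± 0.09 (limma adjusted p = 0.491), with a 95% interval of -0.10 to 0.37. The Blvrb change exceeded the Blvra change by 0.62 within arrays (SD 0.17), with an exact permutation p = 0.333, again the smallest possible. Blvra is the member whose start region holds the antioxidant core shown above, and Blvrb has no match in its 2 listed start regions.

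**Figure D2:**
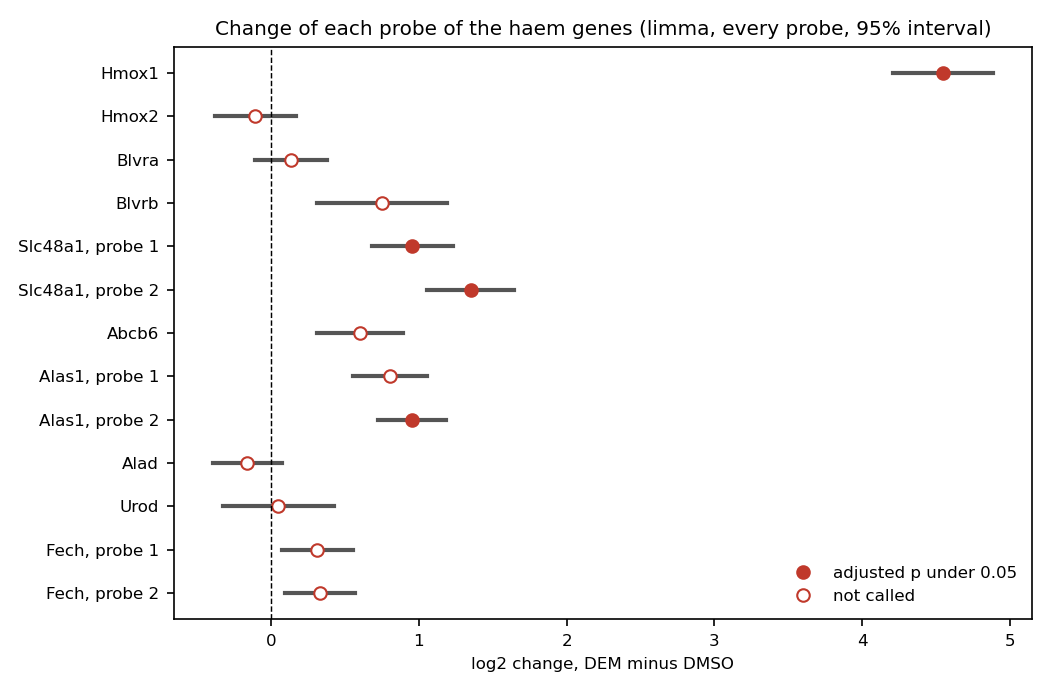
log2 change (DEM minus DMSO) of each of the 13 probes, from a limma fit of separate probes; lines are 95% intervals and filled points have an adjusted p under 0.05. Hmox1 stands at 4.55, both probes of Slc48a1 and Alas1 lie between 0.81 and 1.35, and the intervals of Hmox2, Blvra, Alad and Urod include 0.

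Of the transporters, Slc48a1, which moves haem from endolysosomes to the cytosol, read 46400 and 46200 in DEM, against 19300 and 16100 in DMSO. The DEM arrays were nearly equal and both lay above the DMSO arrays. The log2 change was 1.35 ± 0.11, a 2.55-fold rise with a 95% interval of 2.08 to 3.13 (limma adjusted p = 0.0346). The other probe read 15800 and 15200 in DEM, against 8400 and 7180 in DMSO. In a fit of all probes separately that probe was 1.94-fold higher and also called (limma adjusted p = 0.0447), beside 0.61% of probes called higher and 1.01% called in either direction. Leaving out any array ended the gene's call, with an adjusted p of 0.0522 and 0.0641 when DEM replicate 1 or 2 was dropped and of 0.173 and 0.211 when DMSO replicate 1 or 2 was dropped, while the log2 change stayed between 1.25 and 1.46.

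Abcb6, an ABC transporter linked to porphyrin transport, read 8940 and 8340 in DEM, against 6040 and 5050 in DMSO. Its groups did not overlap. The log2 change was 0.60 ± 0.11, 1.52-fold, and was not called (limma adjusted p = 0.0918). Like Blvrb it was called under normexp, median scaling and both intensity-trend fits, with adjusted p between 0.00770 and 0.0424. Those settings called 3.65% to 5.68% of all genes tested.

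In the synthesis chain, the called gene was that of the entry enzyme. Alas1, which joins glycine and succinyl-CoA and sets the rate of the pathway in liver, read 2330 and 2290 in DEM, against 1360 and 1210 in DMSO. Both DEM arrays were higher. The log2 change was 0.81 ± 0.09, a 1.75-fold rise with a 95% interval of 1.48 to 2.07, and it passed the threshold narrowly (limma adjusted p = 0.0499). It lost the call under 9 of 16 alternatives, among them quantile normalization (0.0566), spike-in scaling (0.148) and leaving out DEM replicate 1 (0.0986), DEM replicate 2 (0.132), DMSO replicate 1 (0.241) or DMSO replicate 2 (0.262).

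The second Alas1 probe read 578 and 558 in DEM, against 287 and 283 in DMSO. The arrays of each group were close. In the fit of separate probes this probe was 1.94-fold higher and called (limma adjusted p = 0.0358), where the probe used above had an adjusted p of 0.0511. Over the 16 alternatives the log2 change of Alas1 ran from 0.73 to 0.95.

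The genes of the later enzymes were not called. Alad, which condenses 5-aminolevulinate into porphobilinogen, read 43200 and 41500 in DEM and 47800 and 44200 in DMSO. It was the member whose DEM arrays lay below its DMSO arrays, with a log2 change of -0.16 ± 0.08 (limma adjusted p = 0.396, 95% interval -0.39 to 0.07). Urod, which removes carboxyl groups from uroporphyrinogen, read 16200 and 14000 in DEM and 16000 and 12500 in DMSO. These overlapped. Its log2 change was 0.05 ± 0.14 (limma adjusted p = 0.893), but the direction was not stable: leaving out DEM replicate 1 or scaling on spike-in probes gave -0.03, and leaving out DMSO replicate 2 gave -0.10.

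Fech, the enzyme that inserts iron, read 6250 and 6300 in DEM and 5120 and 4700 in DMSO. Both DEM arrays were higher. Its log2 change was 0.31 ± 0.09 and was not called (limma adjusted p = 0.179, unadjusted p = 0.0204). The other probe of Fech gave 0.33 ± 0.09, also not called (limma adjusted p = 0.170 in the fit of separate probes). At an unadjusted p under 0.05, 6 of the 10 members were higher and 0 lower, beside 9.02% and 10.2% of all genes tested.

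**Figure D3:**
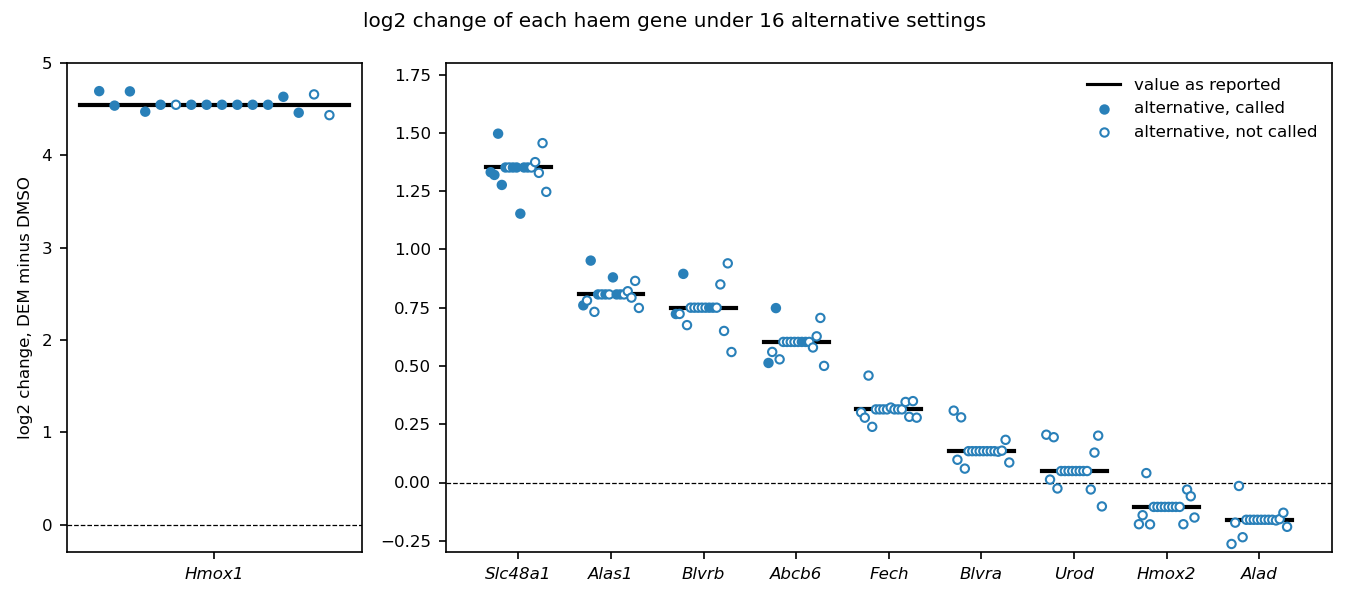
log2 change (DEM minus DMSO) of each gene under the reported setting (black line) and 16 alternatives (points, filled where the adjusted p was under 0.05). Hmox1 stays between 4.44 and 4.70, Slc48a1 does not go below 1.15, and Hmox2 and Urod cross 0.

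Beyond the members, genes of haem synthesis, transport, scavenging and control were looked up as a list. Of 25 listed, 20 were tested, 1 fell, 0 rose and 19 were not called, with a median log2 change of 0.02. Over all genes tested, 0.714% were called as rises and 0.508% as falls. Before adjustment, limma p-values below 0.05 went with 5 rises and 1 fall among these 20. The matching shares of all genes tested were 9.02% for rises and 10.2% for falls. Among those 5 rises is Hpx, which entered the test through its DEM arrays alone and so does not count as support. The 5 left out, Alas2, Flvcr2, Hebp1, Hp and Cd163, were well above background on fewer than 2 arrays. The log2 changes of Uros, Cpox and Ppox, which act in haem synthesis, lay between -0.11 and 0.02 with 0 called and 0 at an unadjusted p under 0.05.

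The 1 fall was in Nr1d1, which encodes REV-ERB alpha, a nuclear receptor that binds haem, represses clock genes and is known to act on Alas1 through the coactivator gene Ppargc1a. Nr1d1 read 96.3 and 84.8 in DEM, against 225 and 203 in DMSO. Both DEM arrays were lower, and the log2 change was -1.28 ± 0.10, 2.43-fold lower in DEM (limma adjusted p = 0.0325, beside 0.508% of all genes called lower). Its other 2 probes gave -0.83 and -0.59 in the fit of separate probes (limma adjusted p = 0.0433 and 0.0851). The call was lost on dropping DEM replicate 2 (adjusted p = 0.0621), DMSO replicate 1 (0.207) or DMSO replicate 2 (0.215). For Ppargc1a itself the log2 change was 0.07 ± 0.28 (limma adjusted p = 0.925).

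**Figure D4:**
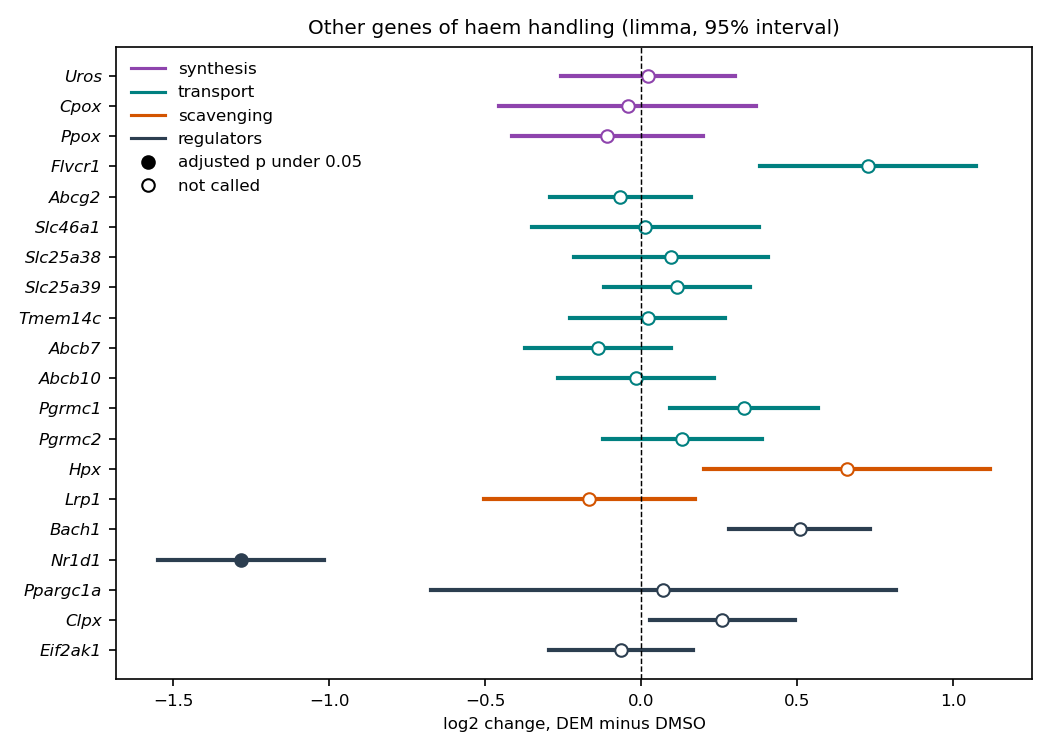
log2 change (DEM minus DMSO) of the 20 other genes of haem handling that were tested, coloured by role; lines are 95% intervals and the filled point has an adjusted p under 0.05. Nr1d1 is the filled point at -1.28, and Flvcr1 is the highest at 0.73.

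The haem exporter gene Flvcr1 read 3250 and 3710 in DEM, against 2200 and 1890 in DMSO. Its groups did not overlap, and its log2 change of 0.73 ± 0.13 was not called (limma adjusted p = 0.0895). Bach1, the repressor of Hmox1, read 556 and 554 in DEM, against 386 and 373 in DMSO. Its arrays were close within each group, and the log2 change of 0.51 ± 0.08 was not called (limma adjusted p = 0.0808). Hpx, which encodes the plasma haem scavenger haemopexin, read 21.4 and 23.8 in DEM and 16.2 and 11.9 in DMSO. It was well above background on 0 of 2 DMSO arrays and so entered the test through its DEM arrays alone. Hpx was not called, and no p-value is given for it because of that entry. Pgrmc1, a haem-binding membrane protein, and Clpx, the unfoldase of a mitochondrial protease known to degrade ALAS1 in human cells, were named after their values were seen. Their log2 changes were 0.33 ± 0.09 and 0.26 ± 0.09 (limma adjusted p = 0.167 and 0.224).

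Nqo1 and Gclm, known NRF2 targets outside haem handling, rose in the same arrays. Nqo1, a quinone reductase, read 8550 and 7900 in DEM, against 1680 and 1460 in DMSO. Gclm, a subunit of the enzyme that starts glutathione synthesis, read 1030 and 1010 in DEM, against 269 and 226 in DMSO. Their log2 changes were 2.35 ± 0.10 and 2.01 ± 0.11 (limma adjusted p = 0.0125 and 0.0229). The message of Nfe2l2, the gene of NRF2, differed by 0.05 ± 0.10 on the log2 scale (limma adjusted p = 0.845).

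The genes whose pattern over the 4 arrays was nearest to that of Hmox1, by Euclidean distance between mean-centred log2 values, were Gsta1, Slc7a11 and Osgin1. Gsta1, an alpha class glutathione transferase, was well above background on 0 of 2 DMSO arrays. Its place in this order therefore rests on DMSO values that were not measured above background, and its rise is a bound of at least 10.8-fold. Gsta1 entered the test through its DEM arrays alone, so no p-value is given for that bound. The cystine importer gene Slc7a11 was at 0.60 and the stress-induced growth inhibitor gene Osgin1 at 0.78.

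On the arrays as a whole, 50.4% to 52.6% of 41174 probes passed the well-above-background test and no non-control spot was saturated (0 flags). All 4 arrays lay on 1 slide with 1 scan time, with DEM at positions 3 and 4 and DMSO at positions 1 and 2, so position and group cannot be told apart. Of the calls among all genes 58.4% were rises, against 71.3% under median scaling and 34.9% under spike-in scaling. Of 12 hepatocyte and hepatoma markers 11 had a named probe and 7 were detected (well above background on 2 arrays or more), among them Alb, Afp and Krt8, while Apoa1, Ttr, Hnf4a and Fgb were not on any array. Summed signal of that list, relative to the 75th percentile of each array, was 832 to 836 in DEM and 797 to 843 in DMSO. Most of it came from Krt8 (400 to 427 over the arrays) and Krt18 (252 to 267), so the sum says little about the dimmer markers. Of 6 erythroid markers, a list included because erythroid cells are a main site of haem synthesis, 2 of 5 measured were detected, Hba-a1 and Epor, both well above background on all 4 arrays. Gata1 and Klf1 were not well above background on any array, and the summed signal was 0.161 to 0.222 in DEM and 0.211 to 0.262 in DMSO. Macrophage markers summed to 2.53 to 3.43 in DEM and 2.12 to 2.48 in DMSO, with 1 of 5 measured markers, Csf1r, detected and Adgre1, Cd163 and Vsig4 on none. Nearly all of that sum was Csf1r (1.94 to 3.40 over the arrays). Fibroblast markers (3 of 4 detected) summed to 75.4 to 89.0 in DEM and 85.0 to 94.2 in DMSO, and endothelial markers (1 of 4, with Pecam1, Cdh5 and Kdr on no array) to 0.119 to 0.125 in DEM and 0.129 to 0.139 in DMSO. Most of the fibroblast sum came from Col1a1 (60.4 to 79.7 over the arrays) and most of the endothelial sum from Lyve1 (0.0995 to 0.118). These sums therefore say little about the other markers of their lists. The part of these markers in the results was not tested. In bulk RNA, fewer cells of a type and less RNA per cell cannot be told apart.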

How the data were processed

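Per the labels, amplified RNA carried the dye Cy3, in a 1-colour design. Agilent Feature Extraction 10.7.3.1, per the file headers, made the deposited processed signal, an intensity after its own background subtraction written to 3 significant digits, and the array annotation is on mm9. The deposited value table held the same intensity at all 45018 spots of each array, so its scale is linear and uncentred; its column medians were 13.8 to 16.2. What was computed here was log2 of the processed signal minus the array's 75th percentile over 43379 non-control spots, without outlier spots. Probes well above background on at least 2 arrays were tested, with the brightest probe per gene. Names came from RefSeq (GRCm38.p6), for 26690 probes with 1 symbol and 14484 without. limma 3.58.1 in R 4.3.3 compared DEM with DMSO over all genes, with Benjamini-Hochberg adjustment. On simulated data for this comparison (15537 genes, 20 sets) it recovered 43.1% of 2-fold and 89.2% of 4-fold changes, with 5.20% of calls false. The simulated noise was normal, independent between arrays and unrelated to intensity. These shares describe that setting and are not error rates of the calls reported here. Alternatives covered background, scaling, filters, probe summary, variance model, replicate number and left-out arrays. The files hold no mean spot signal, so normexp used the median signal with an offset of 50. All members are named, with every called gene of the other haem list and its 3 largest changes, the 3 genes nearest to Hmox1, and Nqo1, Gclm, Nfe2l2 and Bach1. Uros, Cpox, Ppox, Ppargc1a, Pgrmc1 and Clpx were also named, outside this rule. A gene of the other haem list and a marker are not reported here. Members, lists and rules were chosen with earlier results of these data known.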

Additional observations from a re-analysis of the deposited data

How the results depend on the processing

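The number of members called was 3 as reported. It was 5 under normexp, median scaling, an intensity trend and that trend with robust fitting. It fell to 2 under quantile normalization, under spike-in scaling and in the fit of separate probes. With the replicate number as a block it was 1, and with no filter on dim probes 0. The count over all genes was 190 as reported. It was 807 under normexp, 93 under quantile normalization, 567 under median scaling, 568 under spike-in scaling, 426 with the filter on all 4 arrays, 726 with an intensity trend, 882 with that trend and robust fitting, and 0 with no filter (limma; 1246 rises and 1919 falls had an unadjusted p under 0.05 among 32288 genes). Of the other haem genes 1 was called as reported, 2 under normexp and median scaling, 3 with an intensity trend, 4 with robust fitting added and 0 with no filter. Leaving out 1 array at a time gave 0 to 121 genes, 0 to 1 members and 0 to 1 of the other haem genes called. A left-out array leaves 1 sample in its group, which is then assumed to vary like the other group. Normexp also moved the Hmox1 minus Hmox2 difference to 4.87 and the Blvrb minus Blvra difference to 0.41; the cause was not tested.

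Signs turned for Hmox2 (0.040 under median scaling) and for Urod (-0.026 under spike-in scaling, and -0.10 to 0.20 over the left-out arrays), and for no other member in the 16 alternatives. The replicate numbers were not shown to pair the samples: there are only 2 pairs, and the deviations of same-numbered arrays correlated at 0.14 across genes. With the replicate block Hmox1 was called (limma adjusted p = 0.0416), Slc48a1 (0.0521) and Alas1 (0.0594) were not, and the count over all genes was 143. Every probe of a member was well above background on all 4 arrays.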

Other observations

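DMSO replicate 1 was above DMSO replicate 2 for 10 of the 10 haem genes after scaling, with a median difference of 0.16 on the log2 scale. The same held for 14 of 20 tested genes in the other haem list, for 59.0% of all genes tested (median 0.04) and for 72.5% of the 5395 genes at least as bright as the dimmest member (median 0.07). Between the DEM arrays, replicate 1 was above replicate 2 for 5 of the 10.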
